A study of Mus musculus with 8 samples.

Results

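Ligands of the tumour necrosis factor (TNF) superfamily, the death receptors they bind and the proteins that act just below those receptors were examined in the endothelial cells (ECs) of mouse mammary tumours 3 h after an intratumoral (i.t.) injection of a STING agonist. The 10 genes were chosen as a family by name, with no threshold on a value, and each had a row in all 8 expression tables, of 20408 genes found in any of them. They are the ligands Tnf, Tnfsf10, Tnfsf15 and Ltb, the receptors Fas, Tnfrsf10b and Tnfrsf9, and the intracellular proteins Casp8, Cflar and Ripk1. Spontaneous tumours grew in MMTV-PyMT mice, in which a mammary tumour virus promoter drives the polyoma middle T oncogene, and their female hosts were 9 weeks old when treatment began. Implanted tumours came from cultured MMTV-PyMT tumour cells placed with Matrigel in the mammary fat pad of female mice aged 8 to 9 weeks. In each model 2 libraries were made after 14 µg of 3′3′-cGAMP in 70 µl of PBS, and 2 after 70 µl of PBS alone. For strain, c57bl/6 stands in the labels and FVB in the methods, and this conflict was not settled. Live cells had been sorted for CD31 and against CD45 before droplet sequencing, so blood cells should be few, and all 4 groups share that sort. Nothing used here ties a library to more than its group and number, so p-values measure the spread between these libraries.

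A TNF family ligand is made as a trimer on the cell surface, and many can be shed. Fas and Tnfrsf10b, the mouse receptor of TRAIL, carry an intracellular death domain that gathers an adaptor and the protease caspase-8. The Cflar product, cFLIP, is a caspase-8 relative that restrains it, and Ripk1 is a kinase that directs the complex towards survival signalling, apoptosis or necroptosis. STING, which binds cGAMP, activates the transcription factors IRF3 and NF-κB and leads to type I interferon, and ECs are known to take part in that response.

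The members stood at separate places in the genome, apart from 2 pairs of neighbours. In GRCm38, Ltb lay at chr17:35194439-35196320 on the plus strand and Tnf at chr17:35199381-35202007 on the minus strand. Cflar lay at chr1:58711508-58758884 and Casp8 at chr1:58795374-58847503, both on the plus strand. Tnfsf10 was at chr3:27317028-27342427, Fas at chr19:34290666-34327772, Tnfrsf10b at chr14:69767472-69784411 and Tnfrsf9 at chr4:150914562-150946102. Tnfrsf9 overlapped Camta1 and Ripk1 overlapped Serpinb6a, in each case on the opposite strand, and the strand setting of the counting is not given in the sources used here.

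RefSeq gave promoter windows for 9 of the 10 members. The 250 bases before each start site were searched on both strands for the interferon-stimulated response element core (GAAA, any 2 bases, GAAA), the STAT motif GAS (TTCNNNGAA), the NF-κB consensus and the TATA box TATAAA. The stretches of Tnfsf10, Ltb and Fas, up to the first annotated exon, are shown because these genes gave a called rise in both models, a called rise in the implanted model and a called fall in both models. They run 5′ to 3′ on the plus strand of GRCm38.p6 at chr3:27316827-27317027, chr17:35194257-35194438 and chr19:34290409-34290658, and capitals mark motif matches.
Tnfsf10: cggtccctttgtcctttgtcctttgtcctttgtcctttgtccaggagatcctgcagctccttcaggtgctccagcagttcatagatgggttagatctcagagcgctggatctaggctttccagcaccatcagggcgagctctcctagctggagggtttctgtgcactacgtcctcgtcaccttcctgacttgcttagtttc
Ltb: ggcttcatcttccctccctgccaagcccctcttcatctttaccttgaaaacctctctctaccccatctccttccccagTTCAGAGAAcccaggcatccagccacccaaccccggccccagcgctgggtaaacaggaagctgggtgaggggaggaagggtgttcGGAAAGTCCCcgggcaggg
Fas: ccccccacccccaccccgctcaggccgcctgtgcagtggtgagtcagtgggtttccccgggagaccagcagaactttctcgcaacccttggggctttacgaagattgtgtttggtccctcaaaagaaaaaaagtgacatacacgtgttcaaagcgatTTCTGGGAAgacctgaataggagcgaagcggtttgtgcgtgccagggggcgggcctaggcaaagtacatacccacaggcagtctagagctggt
The Tnfsf10 window held none of the 4 motifs. In Ltb, a GAS match began 172 bases and an NF-κB consensus match 87 bases before the start site, and in Fas a GAS match began 93 bases before it. Elsewhere among the members, the second start site of Tnfrsf9 had a GAS match at 136 bases and overlapping NF-κB matches at 43 and 42 bases, and Tnf had a TATA box at 29 bases. Cflar had overlapping TATA boxes at 134 and 132 bases, and the second start site of Ripk1, called in neither model, had GAS matches at 108 and 11 bases. Over all 32851 promoter windows, 2.98% held the response element core, 7.02% a GAS match, 3.90% an NF-κB consensus and 12.4% a TATA box. These matches are letters in a window and say nothing of binding.

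The tables held 8204 cells, of which 7159 had at least 1 unique molecule (UMI) of Pecam1, the gene of CD31, and these cells were used. The 11 pan-endothelial markers were present in every library, at a summed 7751 to 9072 counts per 1000000 UMIs (CPM). A library held 601 to 1529 such cells and 7451522 to 16338968 UMIs. Implanted cGAMP replicate 1 stood apart, with a median of 3049 UMIs per cell and 37.9% of cells under 2000, against medians of 9523 to 14708 elsewhere. Of 8197 distinct cell barcodes, 7 were found in more than 1 library. Levels below are the mean CPM over the Pecam1-positive cells of a library, and fold changes are on the log2(mean CPM + 1) scale, which understates the change of low genes. A gene entered the limma fit if it reached 5 CPM in at least 2 libraries, and was called at an adjusted p under 0.05. In such averages, fewer cells of a type and less RNA per cell cannot be told apart.

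Of the 10 members, 9 entered the fit and Tnfsf15 did not. Tnf reached 5 CPM only in the 2 implanted cGAMP libraries, so it was tested only because it was high there. In spontaneous tumours, 5 members were called after cGAMP, 4 higher and 1 lower. Among all 10424 genes tested, 12.7% were called in that comparison, 5.09% higher and 7.59% lower. In implanted tumours, 8 members were called, 7 higher and 1 lower, where 25.0% of all genes were called, 8.6% higher and 16.4% lower. The median log2 fold change over the 9 tested members was 0.09 in spontaneous and 0.80 in implanted tumours, against -0.10 and -0.10 over all genes.

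**Figure D1:**
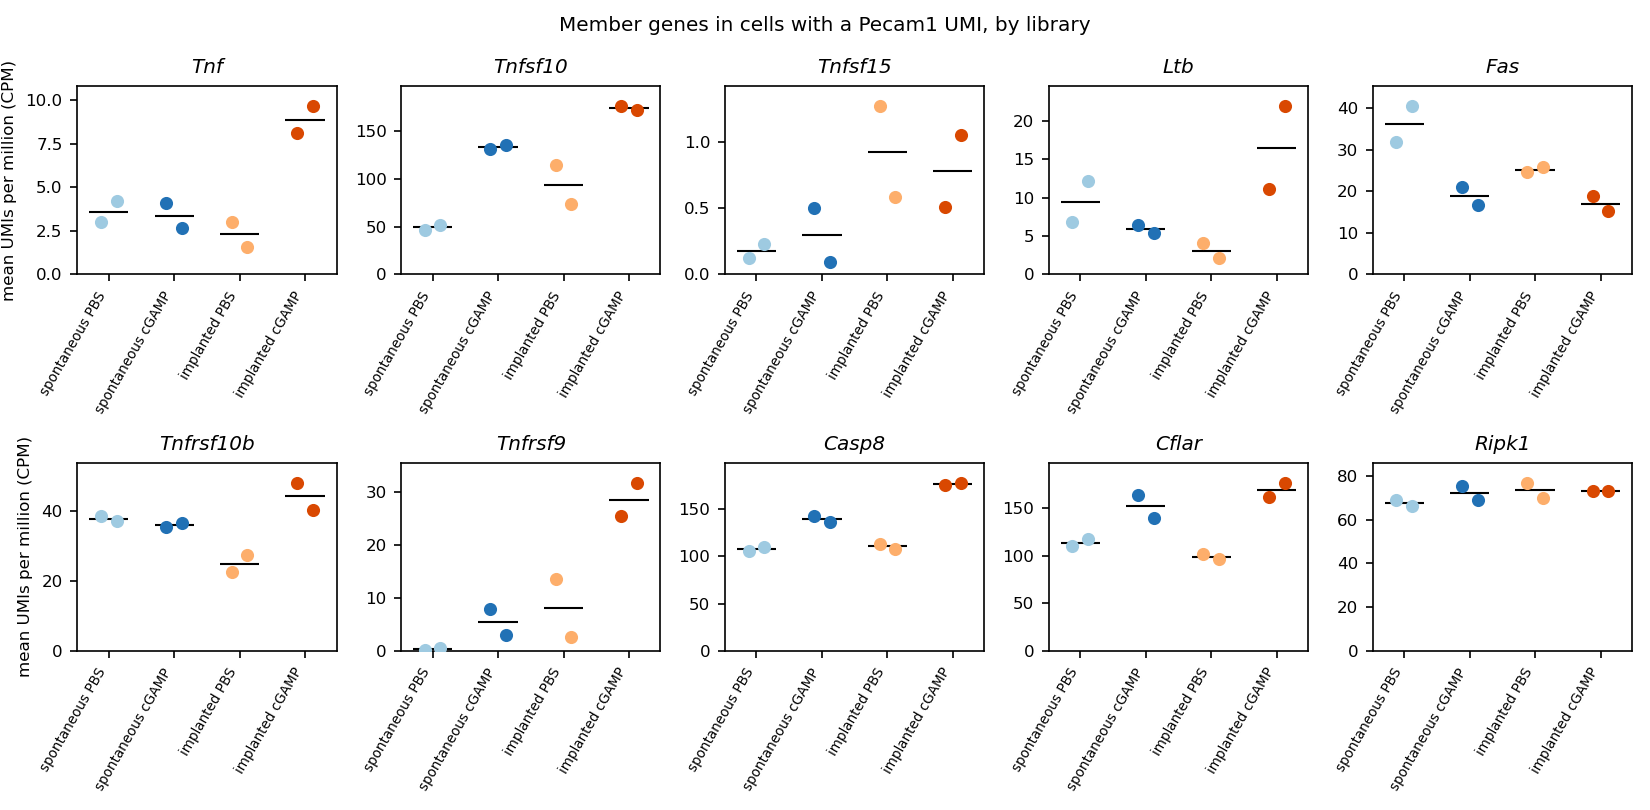
Mean CPM of each member in Pecam1-positive cells, with 1 point per library and a black line at the mean of the 2 libraries of a group. Each panel has its own axis from 0, and the cGAMP points of Tnfsf10, Casp8 and Cflar sit above the PBS points of the same model while those of Fas sit below.

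Tnfsf10 encodes TRAIL, the ligand of Tnfrsf10b, and is a known interferon-induced gene. It was at 47.0 and 51.5 CPM in spontaneous PBS tumours and at 131 and 135 CPM in spontaneous cGAMP tumours. In implanted tumours it was at 114 and 73.8 CPM after PBS and at 176 and 172 CPM after cGAMP. The treated libraries were above the PBS libraries in both models without overlap, and the implanted PBS libraries were already above the spontaneous PBS libraries. The rise was 1.42 ± 0.16 (SE) on the log2 scale in spontaneous tumours (limma, adjusted p = 0.00048). In the implanted model it was 0.92 ± 0.16 (adjusted p = 0.0037). Both calls were kept in all 22 alternatives, with changes of 1.27 to 1.52 and 0.60 to 1.23. With every cell thinned to 2000 UMIs and the shallower cells left out, 7.88% and 10.3% of spontaneous PBS cells had a Tnfsf10 UMI, and 20.7% and 25.1% of spontaneous cGAMP cells.

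Tnf encodes the founding ligand of the family, a soluble and membrane-bound inflammatory cytokine. It was scarce, with 385 UMIs in all Pecam1-positive cells. Its level was 2.99 and 4.24 CPM after PBS and 4.08 and 2.68 CPM after cGAMP in spontaneous tumours, where the groups overlapped. Implanted tumours had 2.99 and 1.61 CPM after PBS and 8.10 and 9.66 CPM after cGAMP, with no overlap. The change was -0.08 ± 0.33 in spontaneous tumours (limma, adjusted p = 0.90) and 1.61 ± 0.33 in the implanted model (adjusted p = 0.0072). The implanted call was also made with no filter on low values (adjusted p = 0.025). It was lost when clusters were weighted equally (0.99, limma, adjusted p = 0.058) and without implanted PBS replicate 2 (1.31). Without either implanted cGAMP library, or without the Ccl20 cluster described below, Tnf did not pass the filter and could not be tested.

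Ltb encodes lymphotoxin beta, which pairs with lymphotoxin alpha on the cell surface and signals in lymphoid tissue organisation. It was at 6.79 and 12.1 CPM in spontaneous PBS and at 6.39 and 5.42 CPM in spontaneous cGAMP tumours. In implanted tumours it was at 4.04 and 2.15 CPM after PBS and at 11.1 and 21.9 CPM after cGAMP. The treated libraries were the lower ones in the spontaneous model and the higher ones in the implanted model. The change was -0.55 ± 0.37 in spontaneous tumours (limma, adjusted p = 0.36) and 2.06 ± 0.37 in the implanted model (adjusted p = 0.0037). A single cell held 43 of the 82 Ltb UMIs of implanted PBS replicate 1. The implanted call was lost with UMIs summed per library (1.30, adjusted p = 0.085) and with clusters weighted equally (1.15, adjusted p = 0.083).

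Within Pecam1-positive cells, markers of myeloid and lymphoid cells were also higher in the implanted cGAMP libraries. Ptprc is on both lists, and what these UMIs came from was not tested. The 11 myeloid markers summed to 16.1 to 47.1 CPM in the 6 other libraries and to 279 and 69.9 CPM in implanted cGAMP, and all 11 were above 0 there. The 12 lymphoid markers summed to 2.35 to 9.44 CPM elsewhere and to 50.2 and 28.1 CPM in implanted cGAMP, where Ms4a1 was at 0 in both libraries. Pecam1-positive cells with a UMI of Ptprc, the gene of CD45, were 5.63% in each implanted cGAMP library and 0.166% to 2.17% in the others. Those 165 cells held 8.31% of the Tnf UMIs and 21.1% of the Ltb UMIs. When all cells with a Ptprc, Epcam or Pdgfrb UMI were left out, the implanted changes were 1.56 for Tnf (limma, adjusted p = 0.020) and 2.67 for Ltb (adjusted p = 0.0038). In the same fit Tnfrsf9 was called in neither model (1.77, adjusted p = 0.14 in spontaneous and 2.03, adjusted p = 0.067 in implanted tumours).

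Tnfsf15 encodes TL1A, a ligand made by ECs. It was at 0.10 to 0.50 CPM in the spontaneous and at 0.51 to 1.27 CPM in the implanted libraries, too low for the fit. Only 59 UMIs were found, of which 51 came from implanted tumours. With no filter on low values, the difference between implanted and spontaneous tumours after PBS was 0.69 ± 0.25 (limma, adjusted p = 0.23). A difference was not detectable at this depth.

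Fas encodes the receptor of Fas ligand. It was the member that fell after cGAMP in both models. Its level was 32.0 and 40.5 CPM in spontaneous PBS and 21.0 and 16.7 CPM in spontaneous cGAMP tumours. Implanted tumours had 24.6 and 25.8 CPM after PBS and 18.8 and 15.3 CPM after cGAMP, again with no overlap. The change was -0.91 ± 0.17 in spontaneous tumours (limma, adjusted p = 0.0077) and -0.55 ± 0.17 in the implanted model (adjusted p = 0.040). It was below 0 in all 22 alternatives of both comparisons. The implanted call was lost in 8 of them, among them the replicate block (adjusted p = 0.052), median-of-ratios scaling (-0.45, adjusted p = 0.078) and the fit without the 3 shallow unnamed clusters described below (-0.47, adjusted p = 0.16). The spontaneous call was lost without spontaneous PBS replicate 2 (adjusted p = 0.060) and without spontaneous cGAMP replicate 2 (adjusted p = 0.070).

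Tnfrsf10b encodes the death receptor of TRAIL. It was at 38.6 and 37.1 CPM after PBS and 35.5 and 36.6 CPM after cGAMP in spontaneous tumours. The implanted libraries were at 22.6 and 27.4 CPM after PBS and at 48.1 and 40.3 CPM after cGAMP. The treated implanted libraries were the highest of the 8 and the implanted PBS libraries the lowest. The change was -0.07 ± 0.13 in spontaneous tumours (limma, adjusted p = 0.77) and 0.80 ± 0.13 in the implanted model (adjusted p = 0.0021). The implanted call held in all 22 alternatives, with changes of 0.67 to 0.93.

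Tnfrsf9 encodes 4-1BB (CD137), a costimulatory receptor with no death domain that is best known on activated T cells. It had 3 and 7 UMIs in the spontaneous PBS libraries, or 0.27 and 0.57 CPM, and was at 7.85 and 2.95 CPM after cGAMP. In implanted tumours it was at 13.6 and 2.73 CPM after PBS and at 25.4 and 31.8 CPM after cGAMP. The implanted PBS libraries differed from each other the most, and the groups did not overlap within a model. The rise was 2.07 ± 0.58 in spontaneous tumours (limma, adjusted p = 0.047) and 1.995 ± 0.58 in the implanted model (adjusted p = 0.032). These calls were close to the threshold and held in 13 and 16 of 22 alternatives. With no filter on low values they were lost (adjusted p = 0.15 and 0.11). They were also lost on leaving out any spontaneous library in the spontaneous model, and implanted PBS replicate 2 (1.01, adjusted p = 0.21) or either cGAMP library in the implanted model.

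Below the receptors, the protease and its inhibitor rose side by side. Casp8 was at 105 and 109 CPM after PBS and at 142 and 136 CPM after cGAMP in spontaneous tumours. In implanted tumours it was at 113 and 107 CPM after PBS and at 175 and 177 CPM after cGAMP. The rise was 0.37 ± 0.08 in spontaneous tumours (limma, adjusted p = 0.012) and 0.67 ± 0.08 in the implanted model (adjusted p = 0.00030). Cflar was at 110 and 118 CPM after PBS and at 164 and 140 CPM after cGAMP in spontaneous tumours. In implanted tumours Cflar was at 102 and 96.0 CPM after PBS and at 162 and 177 CPM after cGAMP. Its rise was 0.41 ± 0.10 (limma, adjusted p = 0.026) and 0.77 ± 0.10 (adjusted p = 0.00059). For both genes the treated libraries of a model lay above its PBS libraries. Both implanted calls held in all 22 alternatives. In spontaneous tumours Casp8 lost its call in 3 and Cflar in 4, of which 3 each left out a library.

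Ripk1 was at 66.4 to 69.1 CPM in spontaneous PBS, 68.8 to 75.3 CPM in spontaneous cGAMP, 69.7 to 76.8 CPM in implanted PBS and 72.9 to 73.2 CPM in implanted cGAMP libraries. All 8 libraries lay between 66.4 and 76.8 CPM, and the groups overlapped in both models. The change was 0.09 ± 0.09 in spontaneous (limma, adjusted p = 0.58) and -0.003 ± 0.09 in the implanted model (adjusted p = 0.99).

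**Figure D2:**
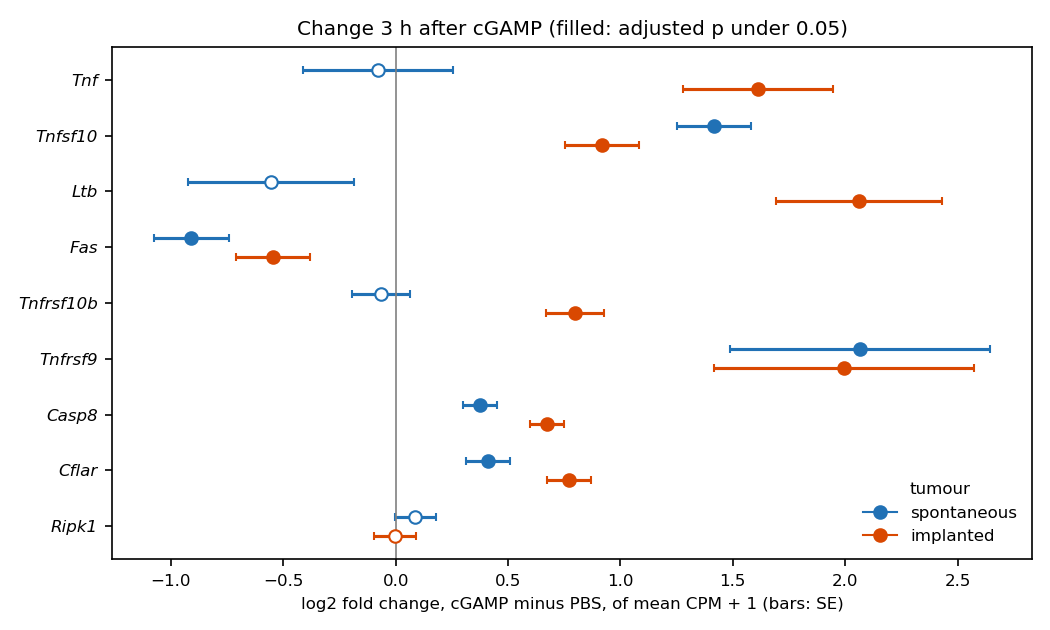
Log2 fold change of the 9 tested members, cGAMP minus PBS, with SE bars, in spontaneous (blue) and implanted (orange) tumours. Filled points passed an adjusted p of 0.05. Fas lies left of 0 and Tnfsf10, Tnfrsf9, Casp8 and Cflar right of it in both models, while Tnf, Ltb and Tnfrsf10b are filled in the implanted model.

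The difference of the responses, implanted minus spontaneous, was called for 0 of the 9 members by limma, where 0.662% of all genes were called. At an unadjusted p under 0.05 there were 5, against 1400 of the 10424 genes. The largest were Ltb at 2.62 ± 0.52 (adjusted p = 0.069), Tnf at 1.69 ± 0.47 (adjusted p = 0.17) and Tnfrsf10b at 0.87 ± 0.18 (adjusted p = 0.079). The calls of Tnf, Ltb and Tnfrsf10b in the implanted model alone are therefore not shown to be a difference between models. Ltb was called without implanted cGAMP replicate 1 (3.08, adjusted p = 0.030) and Tnfrsf10b without implanted cGAMP replicate 2 (0.99, adjusted p = 0.037). Tnfsf10 was called in the other direction without implanted PBS replicate 2 (-0.81, adjusted p = 0.039).

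Between the models after PBS, 3 of 9 members were called, against 7.83% of all genes. Tnfsf10 was higher in implanted tumours by 0.89 ± 0.16 (limma, adjusted p = 0.013) and Tnfrsf9 by 2.39 ± 0.58 (adjusted p = 0.038). Tnfrsf10b was lower, at -0.58 ± 0.13 (adjusted p = 0.025). All 3 calls were lost with no filter on low values and on leaving out either spontaneous PBS library. Tnfrsf9 and Tnfrsf10b were also lost without implanted PBS replicate 1 (1.40 and -0.45, adjusted p = 0.21 and 0.18).

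After cGAMP, 3 of 9 members were called between the models, against 13.8% of all genes. Casp8 was higher in implanted tumours by 0.34 ± 0.08 (limma, adjusted p = 0.020), Tnf by 1.19 ± 0.33 (adjusted p = 0.045) and Tnfrsf9 by 2.32 ± 0.58 (adjusted p = 0.030). The Casp8 call was lost in cells with at least 2000 UMIs (0.28, limma, adjusted p = 0.057). It was also lost without the shallow unnamed clusters described below (0.24, limma, adjusted p = 0.11). Ltb was just outside, at 1.27 ± 0.37 (adjusted p = 0.050). Without spontaneous cGAMP replicate 1 or replicate 2 none was called. Tnf was tested only because it was high in the implanted cGAMP libraries, and its call held in 9 of 19 alternatives. It was lost with no filter on low values (adjusted p = 0.097), with clusters weighted equally (0.18, adjusted p = 0.79) and under the replicate block (adjusted p = 0.060).

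The other genes of the pathway were taken from 4 lists, none of which was tested as a set. Over all genes, 12.7% were called in the spontaneous and 25.0% in the implanted response. Of 14 other TNF superfamily ligands, 2 entered the fit, Tnfsf12 and Tnfsf8. Tnfsf12, which encodes TWEAK, was at 48.9 and 54.3 CPM after PBS and at 34.6 and 34.4 CPM after cGAMP in implanted tumours, a change of -0.57 ± 0.10 (limma, adjusted p = 0.0043). Neither was called in spontaneous tumours. Its receptor Tnfrsf12a rose in the same tumours, from 38.6 and 47.9 CPM to 100.5 and 81.9 CPM, by 1.06 ± 0.19 (adjusted p = 0.0035).

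Of 25 other TNF receptor superfamily genes, 12 entered the fit. In the spontaneous model 1 rose and 0 fell, and in the implanted model 4 rose and 1 fell. The median change was 0.14 and 0.38. Tnfrsf23, a mouse decoy receptor that binds TRAIL and has no death domain, was the gene called in both, by 0.93 ± 0.17 (limma, adjusted p = 0.0085) and by 1.28 ± 0.17 (adjusted p = 0.00088). Its mean rose from 21.2 to 41.9 CPM in spontaneous and from 31.9 to 78.2 CPM in implanted tumours. Tnfrsf26 rose by 1.08 ± 0.33 in the implanted model (adjusted p = 0.041), where Cd40 also rose, and Tnfrsf1a, the main receptor of TNF, fell by 0.25 (adjusted p = 0.041).

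All 24 adaptors, ubiquitin enzymes and kinases of the receptor complexes entered the fit. In spontaneous tumours 3 were higher and in implanted tumours 6, and 0 were lower in either. Counted over both directions, calls were about as frequent as among all genes, where 12.7% and 25.0% were called. Of all genes, 5.09% and 8.6% were called higher. Mlkl, whose product breaks the plasma membrane in necroptosis, was at 14.9 and 15.5 CPM after PBS and at 58.2 and 53.0 CPM after cGAMP in spontaneous tumours. In implanted tumours Mlkl was at 28.8 and 24.1 CPM and then at 78.2 and 84.2 CPM. Its change was 1.81 ± 0.12 (limma, adjusted p = 8.2e-06) and 1.59 ± 0.12 (adjusted p = 3.0e-05). Rnf31, the catalytic part of the linear ubiquitin ligase, rose by 1.26 ± 0.14 and 1.08 ± 0.14 (adjusted p = 0.00029 and 0.00057). The others called in implanted tumours were Birc2, Birc3, Ripk3 and Tnfaip3, and in spontaneous tumours Rbck1.

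Of the 16 caspases and mitochondrial genes downstream of Casp8, all in the fit, 2 rose in the spontaneous model. In the implanted model 4 rose and 1 fell. Of all genes, 12.7% were called in the spontaneous and 25.0% in the implanted response, and 5.09% and 8.6% were called higher. Bid, the substrate that links caspase-8 to mitochondria, rose by 0.96 ± 0.27 in spontaneous tumours (limma, adjusted p = 0.045), from a mean of 4.19 to 9.15 CPM. Bak1, a pore-forming effector, rose by 0.61 ± 0.13 in the same tumours (adjusted p = 0.018) and by 0.42 ± 0.13 in the implanted model (adjusted p = 0.047), where Diablo and Mcl1 also rose. In implanted tumours Casp6, an executioner caspase, fell by 0.73 ± 0.13 (adjusted p = 0.0040), and Cycs, which encodes cytochrome c, rose by 0.45 ± 0.07 (adjusted p = 0.0025). The median change of this list was 0.09 and 0.15.

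The cells were clustered without 1537 genes, among them the members and 1460 genes that cGAMP changed at least 2-fold in either model, and clusters were called by their vessel-type markers and leading gene. Vessel types are a description here, with no test. Arterial-like clusters were led by Npr3 (955 cells) and Gkn3 (530 cells), and venous-like clusters by Fjx1 (1028 cells) and Tmem108 (171 cells). Tip-like cells, which lead sprouting vessels, were 878, and capillary-like cells marked by Aqp7 were 275. Lymphatic-like clusters were led by Scn3a (308 cells) and by Ccl20 and Glycam1 (58 cells). Proliferative-like cells were 299. Of the unnamed clusters, 1 was led by Ptn (923 cells), 1 by Enpp2 (136 cells) and 3 were shallow (1204, 123 and 58 cells). The last of these lay almost wholly in implanted cGAMP replicate 1, with 55 of its 58 cells. The shallow cluster of 1204 cells was the largest of all clusters, and 488 of its cells came from the same library. Its leading genes were Wfdc18, Spp1 and Csn3, and Wfdc18 and Csn3 were also markers of the epithelial-like cluster below. What the cells of this shallow cluster are was not tested. Mural-like (122 cells) and epithelial-like (91 cells) clusters were small, and no cluster was named for an immune cell. Mural-like cells were 0.415% and 3.33% of the cells in spontaneous PBS and 6.57% and 5.77% in spontaneous cGAMP libraries, where they held 11.5% of the Cflar UMIs. Without the mural-like and epithelial-like clusters, the spontaneous change of Cflar was 0.41 (limma, adjusted p = 0.016), and Tnfsf10, Fas, Tnfrsf9 and Casp8 were called as well.

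**Figure D3:**
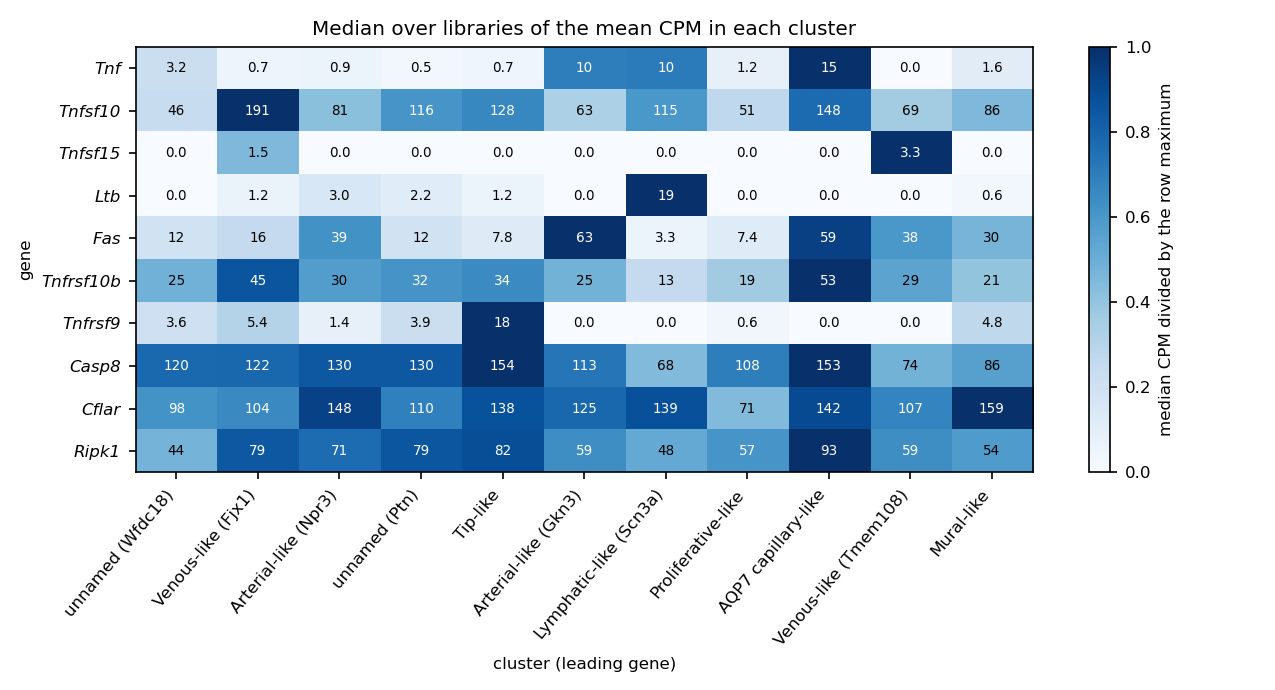
Rows are the members and columns are clusters with at least 20 cells in 3 or more libraries. The number in each field is the median over those libraries of the mean CPM in the cluster, and the shade is that median divided by the highest of the row. Tnfrsf9 is highest in tip-like cells, Ltb in Scn3a lymphatic-like cells and Fas in Gkn3 arterial-like cells.

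Fas was highest in arterial-like and capillary-like cells. Its median over libraries was 63.1 CPM in Gkn3 arterial-like cells, 39.2 CPM in Npr3 arterial-like cells and 58.9 CPM in AQP7 capillary-like cells. It was 7.75 CPM in tip-like and 3.32 CPM in Scn3a lymphatic-like cells. Both arterial-like clusters were above the other cells of the same library in 8 of 8 libraries, and AQP7 capillary-like cells in 6 of 8. In Npr3 arterial-like cells Fas was at 67.4 and 81.9 CPM after PBS and at 43.4 and 31.3 CPM after cGAMP in spontaneous tumours. In implanted tumours the same cells were at 35.1 and 43.3 CPM and then at 24.7 and 15.6 CPM. Within AQP7 capillary-like cells of implanted tumours Fas was at 56.8 and 68.9 CPM after PBS and at 18.5 and 14.6 CPM after cGAMP. In Gkn3 arterial-like cells, where Fas was highest, the groups overlapped in both models, at 54.5 and 131.5 CPM after PBS and 55.1 and 56.1 CPM after cGAMP in spontaneous tumours. The same arterial-like cells of implanted tumours were at 103.6 and 63.4 CPM and then at 80.7 and 62.8 CPM. AQP7 capillary-like cells of spontaneous tumours also overlapped, at 61.0 and 99.8 CPM against 61.3 and 44.5 CPM, as did tip-like cells. Over the 7 clusters with at least 20 cells in every library, the log2 difference ran from -1.09 to 0.20 in spontaneous and from -1.87 to -0.02 in implanted tumours.

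Tnfsf10 was broad. Over libraries its median was 191 CPM in Fjx1 venous-like, 148 CPM in AQP7 capillary-like, 128 CPM in tip-like and 63.0 CPM in Gkn3 arterial-like cells. The cluster with the most even level in implanted tumours was the Fjx1 venous-like one, at 224 and 157 CPM after PBS and at 196 and 198 CPM after cGAMP. In spontaneous tumours the same venous-like cells were at 50.8 and 61.2 CPM after PBS and at 187 and 217 CPM after cGAMP. Npr3 arterial-like cells were at 37.1 and 44.4 CPM against 115 and 133 CPM in spontaneous and at 46.2 and 40.1 CPM against 117 and 129 CPM in implanted tumours. In tip-like cells of implanted tumours Tnfsf10 was at 137 and 90.4 CPM after PBS and at 288 and 222 CPM after cGAMP. Thinned to 2000 UMIs, 41.9% of Enpp2 cells, 42.9% of Ccl20 lymphatic-like cells and 28.3% of AQP7 capillary-like cells had a Tnfsf10 UMI. The log2 difference was above 0 in all 7 clusters of both models, from 0.25 to 1.83 in spontaneous and from 0.07 to 1.49 in implanted tumours.

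Of the 1311 Tnfrsf9 UMIs, pooled over libraries, 59.0% lay in tip-like cells, which were 12.3% of the cells. In implanted PBS replicate 2 tip-like cells held 14 of 59 UMIs. Fjx1 venous-like cells of implanted tumours were at 17.6 and 10.4 CPM after PBS and at 26.9 and 16.1 CPM after cGAMP. Ptn cells of implanted tumours were at 7.37 and 2.79 CPM and then at 19.0 and 54.4 CPM. Tip-like cells were above the other cells of the library in 8 of 8 libraries. They had 0.89 and 1.90 CPM after PBS and 24.9 and 10.3 CPM after cGAMP in spontaneous tumours. In implanted tumours they had 42.7 and 7.77 CPM after PBS and 127 and 138 CPM after cGAMP. Scn3a lymphatic-like cells held 1 UMI in all, Gkn3 arterial-like cells 5 and AQP7 capillary-like cells 2. With cells thinned to 2000 UMIs, 5.37% of tip-like cells had a Tnfrsf9 UMI (exact Clopper-Pearson 95% interval 3.97% to 7.08%, counting error only). The shallow Gm26917 cluster had a UMI in 6.45% of 93 thinned cells (2.40% to 13.5%) and was at 79.2 and 86.1 CPM in the 2 libraries with enough of its cells, on 17 UMIs. Of 299 thinned Scn3a lymphatic-like cells 0 had a UMI, which limits the share of cells with a UMI to 1.003% at 3 counts and does not limit the share that expresses the gene. The median depths before thinning were 16420.5 UMIs in tip-like and 13993.5 UMIs in Scn3a lymphatic-like cells. Mural-like cells held 94 UMIs, 78 of them in implanted cGAMP tumours, where the libraries had 3 and 5 such cells. Cells with a Ptprc UMI held 4.04% of the total.

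**Figure D4:**
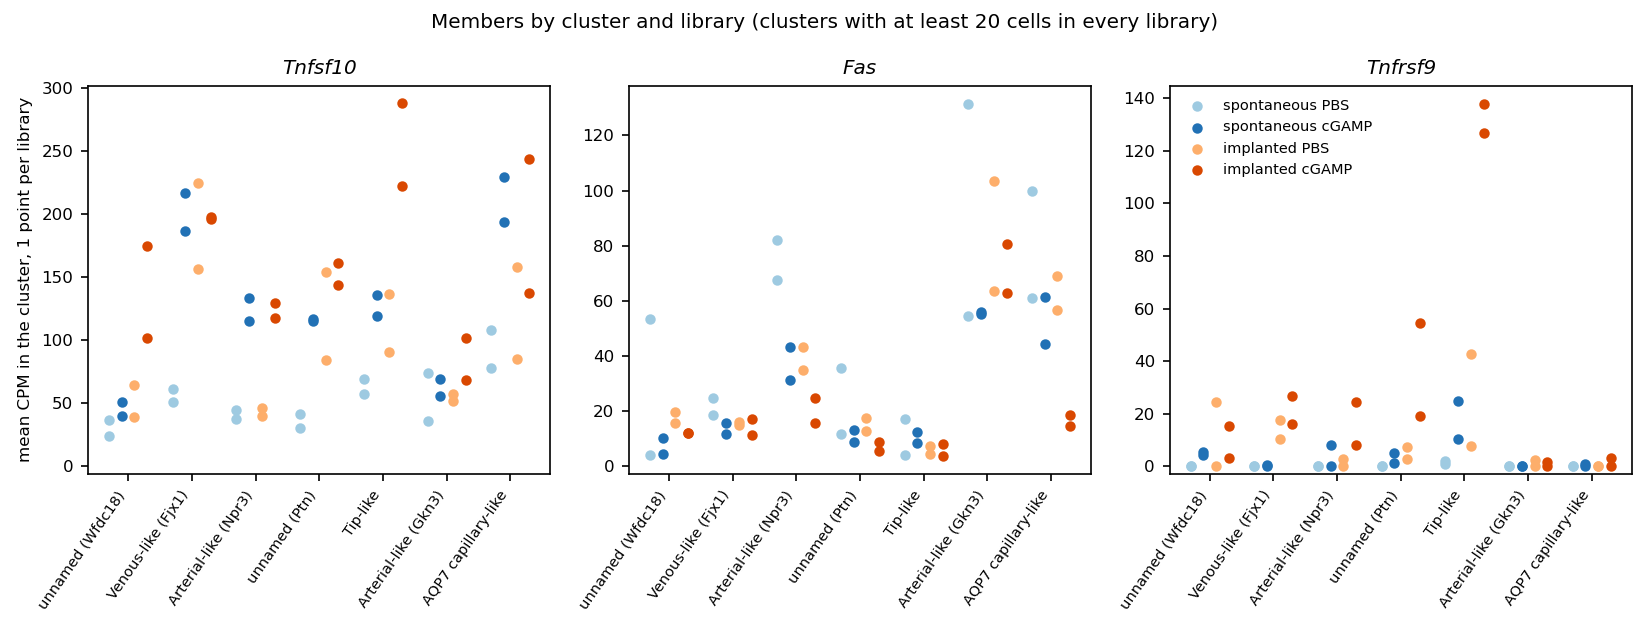
Mean CPM of Tnfsf10, Fas and Tnfrsf9 in each of the 7 clusters with at least 20 cells in every library, 1 point per library, coloured by group. The Tnfrsf9 points of tip-like cells in implanted cGAMP tumours lie at 127 and 138 CPM, above every other point of that panel.

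Tnf and Ltb were gathered in few cells. The Ccl20 lymphatic-like cluster was 0.810% of the cells and held 21.8% of the Tnf UMIs and 49.1% of the Ltb UMIs. Of its cells thinned to 2000 UMIs, 53.6% had an Ltb UMI and 19.6% a Tnf UMI, against 0.114% and 0.686% of tip-like cells. The cluster counted 10 and 10 cells in spontaneous PBS, 5 and 3 in spontaneous cGAMP, 0 and 4 in implanted PBS and 9 and 17 in implanted cGAMP libraries. It had fewer cells after cGAMP in spontaneous tumours and more in implanted tumours. Without it, Ltb was at 2.08 and 1.19 CPM after PBS and at 2.55 and 2.90 CPM after cGAMP in spontaneous tumours, a change of 0.52 (limma, adjusted p = 0.37) in place of -0.55. In implanted tumours Ltb was then at 4.04 and 1.97 CPM after PBS and at 9.96 and 10.5 CPM after cGAMP, a change of 1.54 (adjusted p = 0.012). Tnf without that cluster was at 2.99 and 1.59 CPM and then at 7.47 and 4.50 CPM, and no longer passed the filter. The Scn3a lymphatic-like cluster held a further 22.3% of the Tnf and 14.98% of the Ltb UMIs.

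**Figure D5:**
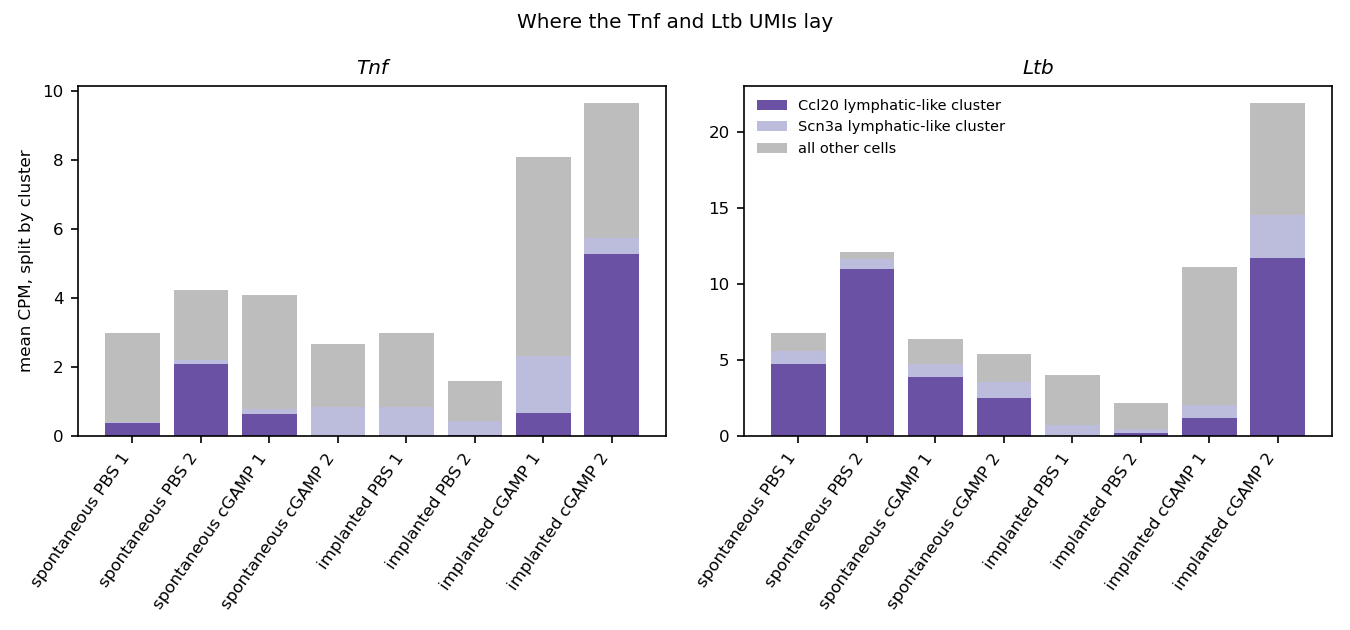
Mean CPM of Tnf and Ltb in each library, split into the UMIs of the Ccl20 lymphatic-like cluster (dark), the Scn3a lymphatic-like cluster (light) and all other cells (grey). The dark part is the larger share of Ltb in both spontaneous PBS libraries, spontaneous cGAMP replicate 1 and implanted cGAMP replicate 2, and is small in implanted cGAMP replicate 1.

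Tnfsf15 lay mostly in venous-like cells. Of its 59 UMIs, 24 were in the Fjx1 and 12 in the Tmem108 venous-like cluster, and 11 in the Ccl20 lymphatic-like cluster. Both arterial-like clusters held 0 UMIs.

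The receptor complex genes were present in every cluster. Casp8 had a median of 154 CPM in tip-like, 153 CPM in AQP7 capillary-like and 68.4 CPM in Scn3a lymphatic-like cells, and tip-like cells were above the other cells in 8 of 8 libraries. Cflar was at 148 CPM in Npr3 arterial-like, 139 CPM in Scn3a lymphatic-like and 70.7 CPM in proliferative-like cells. The log2 difference after cGAMP was above 0 in all 7 clusters of both models for Casp8 (0.09 to 0.57 in spontaneous, 0.25 to 1.02 in implanted) and for Cflar (0.08 to 0.78 and 0.03 to 1.36). Among clusters with at least 20 cells in 3 or more libraries, Tnfrsf10b was highest in AQP7 capillary-like cells at 52.8 CPM and Fjx1 venous-like cells at 45.3 CPM. The Enpp2 cluster was higher, at 79.3 and 84.1 CPM in the 2 libraries with that many of its cells. Its difference was above 0 in 7 of 7 clusters in implanted tumours and in 4 of 7 in spontaneous tumours. The difference of Ripk1 was above 0 in 5 of 7 clusters in spontaneous and in 4 of 7 in implanted tumours.

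Across the 8 libraries the genes whose log2(mean CPM + 1) followed a called member most closely, by Pearson's r, were as follows. These libraries share their group and treatment, so r describes them only. For Tnfsf10 they were Cd274, which encodes PD-L1 (r = 0.997), Apol10b (0.994) and Tap2, a peptide transporter (0.994). For Casp8 they were Ifi209 (0.996), Smchd1 (0.996) and Ms4a4c (0.994), and for Cflar Nmb (0.991), Aftph (0.988) and Azi2 (0.988). Tnfrsf9 was followed by Tmem173, which encodes STING (0.988), Olfm1 (0.979) and Il15 (0.978). Fas was followed by Mib1 (0.988), Mob4 (0.980) and Mta1 (0.979), Tnfrsf10b by Usb1 (0.977), Fxr1 (0.955) and Dctn4 (0.938), Ltb by Mtf1 (0.979), P2rx4 (0.952) and Stc1 (0.951), and Tnf by Sec23a (0.971), Cnnm4 (0.970) and Nus1 (0.970).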

How the data were processed

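Libraries (10x, v3 chemistry) were aligned to mm10 with Cell Ranger 3.0.0 and handled in Seurat 3.1.1, per the submitters' processing notes. The values deposited by the authors are natural log values, ln(1 + UMIs scaled to 10000 per cell), after their filters on genes per cell and mitochondrial share. UMIs were recovered from them, with all values whole within 0.01, but the unit is a natural log, so no count model was run. UMIs of Pecam1-positive cells were scaled to CPM and averaged per library, so each cell weighs the same. limma 3.58.1 (R 4.3.3) was fitted on log2(mean CPM + 1) for genes at 5 CPM or more in at least 2 libraries, over all 8 libraries with 4 group means and 4 residual degrees of freedom, with Benjamini-Hochberg adjustment. The fit was also run on simulated data, with an outcome not given here. Those data held no change in genes as low as Tnf, Ltb or Tnfrsf9. They held none as small as those of Casp8 and Cflar. The members and lists were chosen with earlier results of these data known.

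Clusters came from Seurat 5.3.0 (2500 variable features, 30 components, resolution 0.5), without the members and the genes that cGAMP changed at least 2-fold, and were named from at least 3 markers. A cluster under 0.5 of its library's depth with no marker of its own among its 10 leading genes stayed unnamed, a rule added after seeing the data. Doublets were not called. In each pathway list and response the 2 called genes with the largest changes were named, and the 3 tested genes with the highest r for each called member; other pathway genes named were chosen after their values were seen. No pairing of the libraries by replicate number is named in the methods. The correlations of the deviations of same-numbered libraries ran from -0.216 to 0.125. With 2 libraries per group these cannot exclude a pairing. Promoters are from RefSeq (GRCm38.p6) and gene positions from GENCODE vM21.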

Additional observations from a re-analysis of the deposited data

Results flagged for a closer look

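Ltb lay below both PBS libraries in the 2 spontaneous cGAMP libraries and above them in the 2 implanted ones, and the difference of the responses was 2.62 on the log2 scale, past no threshold in limma (adjusted p = 0.069). The spontaneous change was not called (-0.55, adjusted p = 0.36), and it was 0.52 without the Ccl20 cluster and 0.16 with clusters weighted equally, so an opposite movement is not shown. Tnfrsf10b libraries were placed likewise, with a difference of 0.87 (adjusted p = 0.079), but its spontaneous change was -0.07 ± 0.13 (adjusted p = 0.77) and ran from -0.12 to 0.16 over the alternatives.

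The 1045 cells with no Pecam1 UMI enter no comparison above. Members are named below where both cGAMP libraries lay above both PBS libraries of a model in these cells. How many of all genes did so was not counted, so this choice singles out no member. Tnfsf10 in spontaneous tumours passed narrowly, at 50.2 and 49.4 CPM against 17.5 and 48.1 CPM. Tnf averaged 18.5 CPM in implanted cGAMP libraries (19 UMIs) against 2.34 CPM after PBS (1 UMI). Tnfrsf9 averaged 15.9 CPM there (18 UMIs, 1 of them in replicate 2) against 2.86 CPM (1 UMI). Tnfsf10 averaged 115.7 CPM against 49.0 CPM in implanted and 49.8 CPM against 32.8 CPM in spontaneous tumours. Cflar averaged 159.6 CPM against 85.9 CPM in implanted and 149 CPM against 48.3 CPM in spontaneous tumours, and Ripk1 73.0 CPM against 28.9 CPM in spontaneous tumours. Of these cells, 496 came from implanted cGAMP replicate 1, whose cells were shallow. What these cells are was not tested.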

How the results depend on the processing

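The count of members called was 5 in spontaneous and 8 in implanted tumours, where 12.7% and 25.0% of all genes were called. Calls over all genes moved with the setting too, so a change in the counts below singles out no member. With no filter on low values the count of members was 3 in the spontaneous response, 0 between models after PBS and 1 after cGAMP, against 3 and 3. It was 1 after PBS with all deposited cells, and 1 after cGAMP in cells with at least 2000 UMIs. The difference of the responses, called for 0 members, was called for 1 with UMIs summed per library and for 1 without proliferative-like cells. Leaving out a library gave 2 to 5 calls in the spontaneous and 5 to 8 in the implanted response, 0 to 1 for the difference, 0 to 4 after PBS and 0 to 4 after cGAMP; with an arm of 1 library, that library is assumed to vary like the other groups. With the replicate block the counts were 5, 7, 0, 3 and 2, the lost calls being Fas in the implanted response and Tnf after cGAMP. In that fit 1230 and 2524 of 10424 genes were called in the spontaneous and implanted response. The negative correlation of the spontaneous numbers led to a crossed pairing, chosen after seeing the data, which gave 5, 8, 0, 3 and 3. The fits without the shallow or the Ccl20 cluster were also added after seeing the data. The cause of the changes was not tested.

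Over all genes, calls ran from 448 to 2839 in the spontaneous response (1322 as reported), 1265 to 3722 in the implanted response (2609), 0 to 171 for the difference (69), 212 to 1317 after PBS (816) and 156 to 2069 after cGAMP (1434). Median-of-ratios scaling moved the share of calls that were higher from 40.2% to 66.4% in the spontaneous and from 34.3% to 51.5% in the implanted response. With cluster resolution 1.0, 13 of 80 levels by type were counted as moved beyond 1 SD. Of these, 10 were in epithelial-like cells, which had 1 library with enough cells and so no SD, and no move is shown for them. Depth limits Tnf, Ltb, Tnfsf15 and Tnfrsf9. Thinning to 2000 UMIs moved 78 of 80 shares of cells beyond their counting interval. Lower depth lowers such a share for any detected gene, so that count singles out no member.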
